A study of Mus musculus with 3008 samples.

Results

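The genes described here are 40 cell division genes, taken by name from the count table of a single-cell RNA study of mouse regulatory T cells (Tregs). They comprise 16 genes of DNA replication, 20 genes of mitosis and 4 chromatin and tubulin genes that cells outside the cell cycle also use. All 40 were found among the 23725 genes of the table. Replication and mitosis genes are described apart.

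The cells came from male mice of the strain B6 Foxp3-Ires-Gfp, aged 7 months, in which a green fluorescent protein is read from the locus of Foxp3, the transcription factor that defines Tregs. Live CD4+ T cells with a T cell receptor and GFP were sorted from the spleen or from the colon lamina propria and run on inDrops, a droplet method that counts unique molecular identifiers (UMIs). The table holds 3008 cells: 20.5% are from 1 spleen library, 20.6% from a first colon library, called colon 1 here, and the other 1772 from a second, colon 2. No label names an animal, and colon 2 is called a second replicate in one label and a further run of the first in another, so it is unknown whether more than 1 mouse gave colon cells. The spleen was dissociated mechanically and the colon with collagenase and dispase, so tissue and dissociation cannot be told apart.

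In a cell that enters the cycle, factors of the E2F family switch on the genes that license and copy DNA, such as the MCM helicase, the clamp PCNA and the enzymes that make deoxynucleotides. The cyclins, kinases, kinesins and kinetochore proteins of mitosis are switched on later, in large part through CCAAT boxes and an element called CHR. Tregs of the gut include many activated, effector-like cells, and replication and mitosis transcripts are commonly read as a sign of cycling among them.

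Depth came to 1255946 spleen, 1253246 colon 1 and 3916649 colon 2 UMIs, and the median cell held 1847, 1767 and 2026.5 UMIs. Ribosomal protein genes took 28.5% of UMIs in spleen against 17.6% and 16.3% in colon, and the median cell had 45.8, 49.8 and 20.6 mapped reads per UMI. A Foxp3 UMI was found in 33.2%, 47.5% and 43.9% of cells. The libraries shared few cell barcodes: 5 between spleen and colon 1, 11 between spleen and colon 2 and 9 between the colon libraries. Levels are UMIs per 1000000 UMIs of a library (CPM). With 1 library per group and no named animal there is no replicate check and no test. Every interval is an exact 95% interval (Poisson for a level, conditional binomial for a ratio, Clopper-Pearson for a share), takes UMIs or cells as independent and covers counting error only. The spleen library is the denominator of the ratios of both colon libraries.

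The upstream sequences below are shown because these genes lead the results: Pcna and Mcm6 have the most UMIs among replication genes, and Cenpf and Cenpa among mitosis genes. They come from RefSeq, build GRCm38.p6, and read 5′ to 3′ on the strand of the gene. The 250 bases before the start are given for Mcm6 and Cenpf, and 30 bases around a CCAAT box for Pcna and Cenpa. For the latter pair the annotations differ: the Pcna bases precede the RefSeq start but lie within the GENCODE gene, and the Cenpa bases span its GENCODE start. Capitals mark a match to CCAAT or its reverse complement ATTGG, or to the E2F letters TTTNNCGC or their reverse complement.
Pcna (chr2:132253250-132253279, minus strand): accacgggtacgATTGGtccttgaggagag
Mcm6 (chr1:128359706-128359955, minus strand): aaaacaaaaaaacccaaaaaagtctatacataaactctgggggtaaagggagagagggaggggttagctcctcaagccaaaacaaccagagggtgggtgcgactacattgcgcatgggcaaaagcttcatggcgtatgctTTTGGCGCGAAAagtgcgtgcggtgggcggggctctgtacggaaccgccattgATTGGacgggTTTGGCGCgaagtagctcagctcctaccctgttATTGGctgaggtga
Cenpf (chr1:189688087-189688336, minus strand): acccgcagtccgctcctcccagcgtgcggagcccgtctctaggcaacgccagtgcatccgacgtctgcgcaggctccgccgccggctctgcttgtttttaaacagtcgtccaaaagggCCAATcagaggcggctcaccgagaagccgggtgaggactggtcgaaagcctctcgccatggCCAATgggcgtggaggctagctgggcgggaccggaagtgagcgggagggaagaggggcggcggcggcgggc
Cenpa (chr5:30666765-30666794, plus strand): cttcaagtacccATTGGcttcagaccttta

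The 4 promoters differ in their letters. Mcm6 holds both E2F and CCAAT matches, while the window of Cenpf holds CCAAT matches and neither of the other motifs. An entry was found for 30 of the 36 replication and mitosis genes. Of the 13 replication promoters, 8 (61.5%) held CCAAT on either strand, as did 15 of the 17 mitosis promoters (88.2%), beside 34.5% of 27025 mouse promoters of the same length. The E2F letters stood in 3 of 13 replication promoters (Mcm5, Mcm6 and Mcm7) and in 1 of 17 mitosis promoters (Cdk1), beside 4.39% of all. The CHR letters TTTGAA stood in 2 of 13 and 7 of 17, beside 16.3% of all, and the 7 were Cdk1, Ccnb2, Cdc20, Ube2c, Kif11, Top2a and Mki67. A match is a match of letters in this window.

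The summed level of the 16 replication genes was higher in colon, and Pcna made most of that difference. The spleen sum was 586.8 CPM, that of colon 1 was 1078 and that of colon 2 was 957.5, which is 1.84-fold (1.68 to 2.01) and 1.63-fold (1.51 to 1.77) the spleen level. Pcna held 24.2% of the replication UMIs in spleen, 40.5% in colon 1 and 50% in colon 2. Without it the sum was 445.1, 641.5 and 478.7 CPM, or 1.44-fold (1.29 to 1.61) in colon 1 and 1.08-fold (0.978 to 1.18) in colon 2. With UMIs taken as independent, the interval of the other 15 genes lay above equality in colon 1 and held it in colon 2. The share of cells with a UMI of any of the 15 was 38.4% in spleen, 37.8% in colon 1 and 40.2% in colon 2. Not each of the 15 followed their sum, as the single genes below show.

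**Figure D1:**
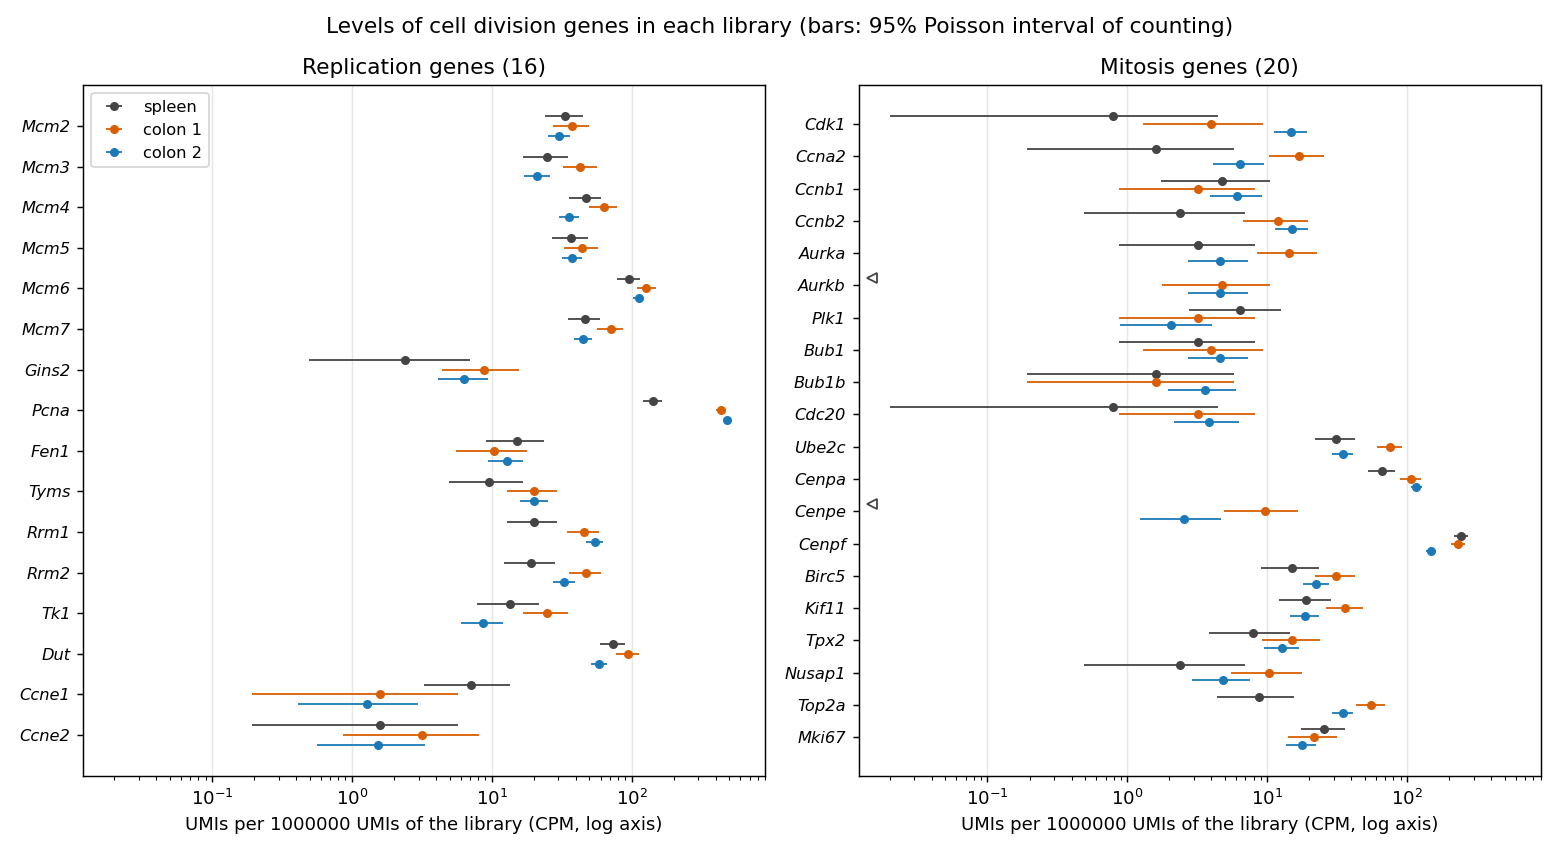
Level of each of the 16 replication genes (left) and 20 mitosis genes (right) in spleen, colon 1 and colon 2, as UMIs per 1000000 UMIs on a log axis. Points are libraries, bars are 95% Poisson intervals, and open triangles at the left edge mark the spleen library at 0 UMIs (Aurkb and Cenpe). Pcna stands at 141.7, 436.5 and 478.7 CPM, and most other replication genes overlap between spleen and colon 2.

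Among genes with a mean of at least 10 CPM over the libraries, 9.41% of 7905 exceeded the spleen level by 2-fold or more in colon 1 and colon 2 alike, and 4.63% lay that far below it in both. Of the 13 replication genes that passed this filter, 3 were higher in both (Pcna, Tyms and Rrm1) and 0 were lower. This count is small, and the filter itself can favour genes that are high in 1 library. The median log2 ratio over the 13 was 0.62 in colon 1 and -0.04 in colon 2, and over all tested genes it was 0.00 and 0.01. In colon 1 alone, set against spleen, 4 of 13 were at least 2-fold higher, beside 11.5% of all genes, and 0 were as much lower, beside 9.22%. For colon 2 alone these counts were 3 of 13, beside 12.6%, and 0, beside 8.49%.

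The MCM genes encode the ring helicase that unwinds DNA at the fork. Summed over the 6 genes, the level was 283.5 CPM for spleen, 386.2 for colon 1 and 281.9 for colon 2, a ratio of 1.36 (1.19 to 1.57) and 0.994 (0.882 to 1.12). Mcm6 stood at 95.5, 127.7 and 112.1 CPM in spleen, colon 1 and colon 2, the order kept from here on. Mcm4 stood at 46.98, 63.04 and 35.7 CPM and Mcm7 at 46.2, 71.0 and 44.9 CPM. Mcm7 overlaps Cops6 and Ap4m1 on the opposite strand, and whether the counting used strand is not given in the sources used here. Mcm5 stood at 36.6, 43.9 and 37.5 CPM, Mcm2 at 33.4, 37.5 and 30.4 CPM and Mcm3 at 24.7, 43.1 and 21.2 CPM. All 6 were highest in colon 1, and none reached 2-fold against spleen. The share of all genes that were highest in colon 1 was not counted. A UMI of any of the 6 stood in 25.93% of spleen, 26.01% of colon 1 and 27.37% of colon 2 cells. Without the cells that held 4 or more mitosis genes, described below, the summed ratios were 1.02 (0.876 to 1.197) and 0.976 (0.861 to 1.11). Mcm3 was at least 2-fold higher in colon 1 than in colon 2, along with Tk1 and Ube2c among the 25 members that passed the filter, beside 2.8% of all genes. In the reverse direction there were 0, beside 3.47%.

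Pcna, which encodes the sliding clamp that holds DNA polymerases and repair factors on DNA, lies at chr2:132249162-132253314 on the minus strand. It had 2600 UMIs over the 3 libraries. Its level was 141.7 CPM for spleen, 436.5 for colon 1 and 478.7 for colon 2, or 3.08-fold (2.60 to 3.67) and 3.38-fold (2.90 to 3.96) higher in colon. Both colon libraries were high, and the intervals of the colon and spleen levels did not overlap. The share of cells with a Pcna UMI was 14.6%, 25.8% and 32.8%. Cells that held it held 1.98, 3.42 and 3.22 UMIs each on average, so that both the share of cells and the UMIs per positive cell were higher in colon. Fen1, which encodes the nuclease that trims Okazaki fragments on the same clamp, did not show that difference, at 15.1, 10.4 and 12.8 CPM from 19, 13 and 50 UMIs. Fen1 overlaps 2 genes on the opposite strand.

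The 5 genes of deoxynucleotide supply summed to 135.4, 231.4 and 174.9 CPM, a ratio of 1.71 (1.41 to 2.08) and 1.29 (1.09 to 1.54). Rrm1 and Rrm2 encode the large and small subunits of ribonucleotide reductase. Rrm1 stood at 19.9, 45.5 and 54.4 CPM, a ratio of 2.28 (1.40 to 3.82) and 2.73 (1.80 to 4.32). Rrm2 stood at 19.1, 47.1 and 32.9 CPM, so that it passed 2-fold in colon 1 (2.46) and not in colon 2 (1.72). Tyms, the gene of thymidylate synthase, had 12, 25 and 79 UMIs and ratios of 2.09 and 2.11, with log2 intervals of 0.02 to 2.19 and 0.19 to 2.09. Dut, whose enzyme keeps dUTP out of DNA, stood at 73.3, 94.2 and 58.7 CPM. Tk1, the gene of the salvage enzyme thymidine kinase 1, had 17, 31 and 34 UMIs and stood at 13.5, 24.7 and 8.68 CPM, lowest in colon 2. It overlaps Afmid and Gm20708 on the opposite strand.

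The remaining 3 replication genes fell under the filter. Gins2, a subunit of the GINS complex that works with the MCM ring, had 3, 11 and 25 UMIs. Its ratios of 3.67 and 2.67 carried log2 intervals from -0.04 to 4.36 and from -0.29 to 3.79. The cyclin E genes, which drive entry into replication, were near the counting limit. Ccne1 had 9, 2 and 5 UMIs and Ccne2 had 2, 4 and 6. Colon 2 had the lower level of Ccne1, with a log2 ratio of -2.49 (-4.41 to -0.76), from 9 spleen UMIs that lay in 4 cells.

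**Figure D2:**
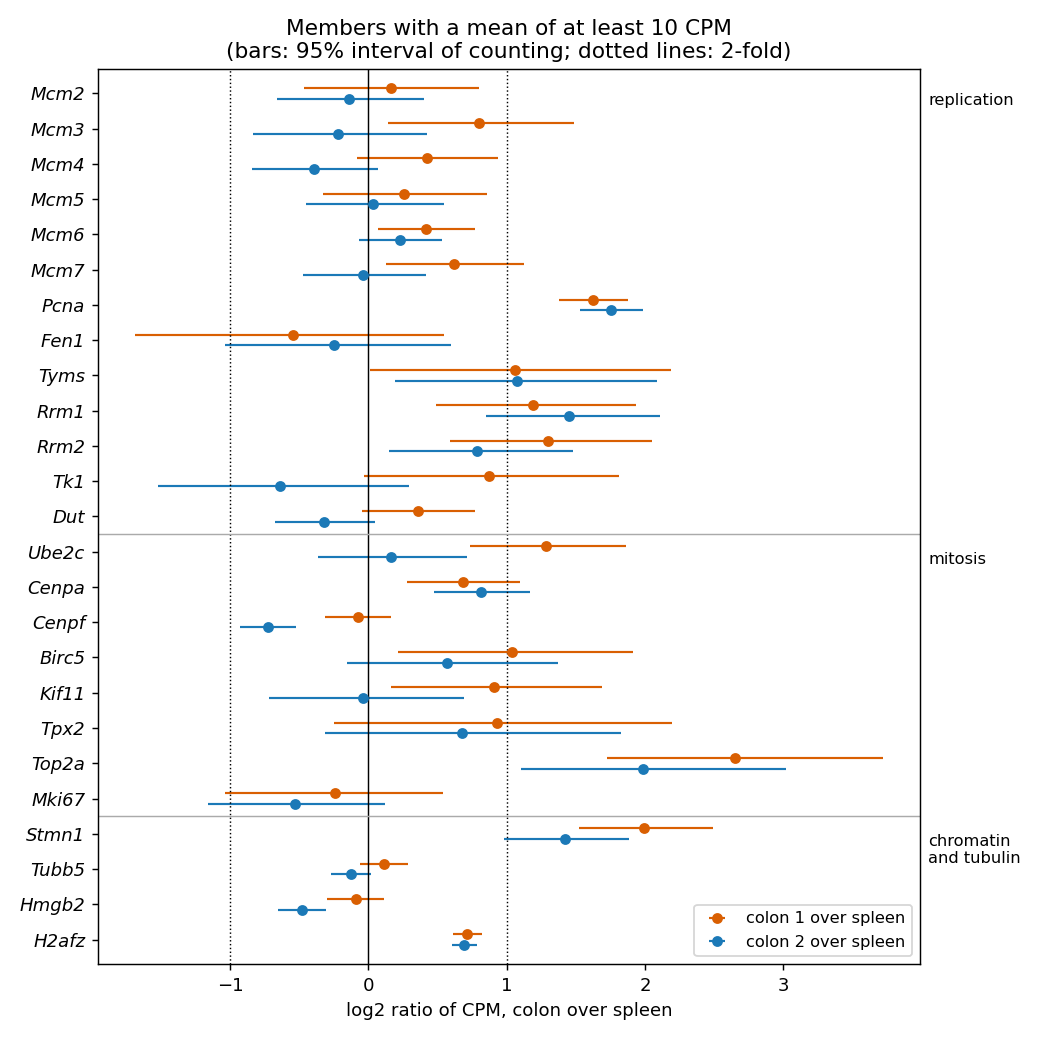
log2 ratio of CPM of colon 1 and of colon 2 over the same spleen library for the 25 members with a mean of at least 10 CPM. Points are single libraries, bars are 95% intervals of counting and dotted lines mark 2-fold. Pcna, Tyms, Rrm1, Top2a and Stmn1 pass 2-fold in both, while Cenpf lies at -0.07 and -0.72.

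The mitosis genes summed to 444.3, 659.1 and 477.96 CPM, a ratio of 1.48 (1.33 to 1.65) and 1.08 (0.978 to 1.18). Cenpf, which encodes a large kinetochore protein, held 54.8% of the spleen mitosis UMIs, 35.1% of those in colon 1 and 30.9% of those in colon 2. Its level in colon 2 lay below that of spleen with intervals that did not overlap. Without Cenpf the other 19 genes summed to 200.6, 427.7 and 330.4 CPM, or 2.13-fold (1.83 to 2.49) and 1.65-fold (1.44 to 1.89) higher in colon. The sum over the list and the sum over 19 of its 20 genes thus differ in size, and the list is described gene by gene.

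Of the 20 mitosis genes, 8 passed the filter. Of these, 1 (Top2a) passed 2-fold upward in colon 1 and colon 2, beside 9.41% of all genes, and 0 downward, beside 4.63%. Their median log2 ratio was 0.92 in colon 1 and 0.37 in colon 2, beside 0.00 and 0.01 over all tested genes. Top2a (8.76 CPM) and Tpx2 (7.96 CPM) lay under 10 CPM in spleen and passed the filter through the colon libraries. The filter thus bears on this count and median. With no filter, 6 of 20 passed it upward in both (Cdk1, Ccna2, Ccnb2, Cdc20, Nusap1 and Top2a), beside 7.74% of 15742 genes, and 0 were as much lower, beside 9.56%. Apart from Top2a these rest on 1 to 3 spleen UMIs each.

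Top2a, the gene of the topoisomerase that untangles replicated chromosomes, stood at 8.76 CPM (11 UMIs), 55.1 CPM (69 UMIs) and 34.7 CPM, 6.29-fold (3.30 to 13.2) and 3.96-fold (2.15 to 8.13) higher in colon. Mki67, which encodes the Ki-67 protein used to stain dividing cells, went without such a difference, with 32, 27 and 69 UMIs and 25.5, 21.5 and 17.6 CPM. Its log2 ratios were -0.24 (-1.04 to 0.54) and -0.53 (-1.16 to 0.12), so both intervals held equality. The pair thus differed in UMI ratios, which take UMIs as independent. A Top2a UMI stood in 1.30% of cells (0.561 to 2.54), 3.07% (1.86 to 4.75) and 2.54% (1.86 to 3.38), and these intervals overlapped. An Mki67 UMI stood in 2.59%, 2.26% and 2.43% of cells.

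The kinetochore and chromosome genes varied among themselves. Cenpa, the gene of the centromere histone, stood at 66.1, 106.1 and 116.4 CPM, 1.61-fold (1.21 to 2.14) and 1.76-fold (1.39 to 2.25) higher in colon. Cenpf stood at 243.6, 231.4 and 147.6 CPM, or 0.950 (0.806 to 1.12) and 0.606 times (0.526 to 0.698) the spleen level. Birc5, which encodes the survivin subunit of the chromosomal passenger complex, had 19, 39 and 88 UMIs and ratios of 2.06 and 1.49. Cenpe, a kinetochore motor gene, had 0, 12 and 10 UMIs. The lower end of its log2 interval was 1.48 in colon 1 and -0.48 in colon 2, so the colon 2 interval held equality. Aurkb, the kinase gene of the passenger complex, had 0, 6 and 18 UMIs, with lower ends of 0.24 and 0.50 on the log2 scale.

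Of the spindle genes, Kif11, which encodes the motor that pushes the poles apart, had 24, 45 and 73 UMIs and ratios of 1.88 and 0.975. Tpx2, the gene of a microtubule nucleation factor, had 10, 19 and 50 UMIs and ratios of 1.9 and 1.6, both with intervals that held equality. Aurka, the spindle pole kinase gene, had 4, 18 and 18 UMIs, and Nusap1, a spindle microtubule gene, had 3, 13 and 19. These genes were higher in colon 1 than in spleen by their point values, and less so or not at all in colon 2.

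The cyclin, kinase and checkpoint genes were sparse. Cdk1, the kinase gene that starts mitosis, had 1, 5 and 58 UMIs, and those of colon 2 came from 14 cells. Its cyclin partners had 2, 21 and 25 UMIs for Ccna2, 6, 4 and 24 for Ccnb1 and 3, 15 and 59 for Ccnb2. The colon 1 ratio of Ccna2 had a log2 interval of 1.36 to 6.53, and Ccnb2 had log2 intervals of 0.50 to 4.76 and 1.04 to 4.98. Ccnb1 did not follow, with log2 ratios of -0.58 (-2.85 to 1.49) and 0.36 (-0.97 to 1.94). Plk1, a kinase gene of mitotic entry and exit, had 8, 4 and 8 UMIs. The checkpoint kinase genes Bub1 and Bub1b had 4, 5 and 18 and 2, 2 and 14 UMIs. Of the genes that send mitotic proteins to degradation, Cdc20, which activates the anaphase-promoting complex, had 1, 4 and 15 UMIs. Ube2c, the ubiquitin-conjugating enzyme gene of that complex, stood at 31.1, 75.8 and 34.7 CPM, 2.44-fold higher in colon 1 and 1.12-fold in colon 2. Ube2c overlaps Tnnc2 on the opposite strand, as Ccna2 does Exosc9, Cdc20 does Elovl1 and Nusap1 does Oip5.

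The 4 chromatin and tubulin genes differed from each other. Stmn1, which encodes the microtubule-destabilizing protein stathmin, had a UMI in 11, 48 and 77 cells. It stood at 37.4, 149.2 and 100.1 CPM, 3.99-fold (2.88 to 5.61) and 2.67-fold (1.97 to 3.70) higher in colon. H2afz, the gene of the histone variant H2A.Z, stood at 971.4, 1596 and 1572 CPM, 1.64-fold (1.53 to 1.77) and 1.62-fold (1.52 to 1.72) higher, with a UMI in 54.0%, 66.1% and 68.6% of cells. Tubb5, a tubulin gene, stood at 416.4, 450.8 and 382.2 CPM, and Hmgb2, a chromatin protein gene, at 313.7, 294.4 and 225.2 CPM. Hmgb2 was thus lower in colon 2, with a log2 ratio of -0.48 (-0.65 to -0.30).

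A cell that divides holds transcripts of many of these genes at once, so the cells in which each gene's UMIs lay were compared. Over the 3 libraries, 87.5% of Ccna2 UMIs came from cells with UMIs of at least 3 other mitosis genes. The share was 79.2% for Aurkb, 77.3% for Cenpe, 75.3% for Ccnb2, 69.2% for Birc5 and 64.4% for Top2a. It was 50% for Mki67 and 40.7% for Ube2c. For Cenpf it was 4.94%, close to the 3.45% of all UMIs that those cells held, and for Kif11 and Cenpa 14.8% and 16.1%. These shares differed by library. In spleen they were 15.8% for Birc5, 27.3% for Top2a, 21.9% for Mki67 and 7.69% for Ube2c, and 0 of the 2 Ccna2 UMIs lay in such cells. In colon 1 they were 89.7%, 79.7%, 62.96% and 49.5% for the same 4 genes and 90.5% for Ccna2, and in colon 2 71.6%, 59.6%, 57.97%, 44.1% and 92%. Cenpf had 2.29%, 10.7% and 3.46%, where those cells held 2.29%, 6.49% and 2.84% of UMIs, and Cenpa 7.23%, 33.8% and 12.5%. In each library most UMIs of Cenpf and Cenpa lay outside cells with several other mitosis genes, and in spleen so did those of Birc5, Top2a, Mki67 and Ube2c. Such cells were few. In spleen they held 2.76%, 3.22%, 3.22% and 2.35% of all UMIs for these 4 genes, below the shares above. For Cenpa they held 2.67%, 7.11% and 3.23%, also below its shares. The spleen share of Top2a came from 3 UMIs in 1 cell.

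Cenpf had a UMI in 37.3% of spleen, 34.6% of colon 1 and 26.02% of colon 2 cells. Its positive cells held 1.33, 1.36 and 1.25 UMIs each. Over all genes found in enough cells the median was 1.53, 1.59 and 1.5. The 5th to 95th percentiles were 1.06 to 2.38, 1.07 to 2.62 and 1.08 to 2.50, and Cenpf lay within them. All 24 spleen UMIs of Kif11 lay in 24 cells and the 39 spleen UMIs of Ube2c in 38 cells. Over the libraries together, the 27 UMIs of Bub1 lay in 27 cells. These UMIs came nearly 1 to a cell. Top2a had 11 spleen UMIs in 8 cells, or 1.375 each, which is under the spleen median of 1.53 and within the spleen percentiles. Its spleen cells were too few for Top2a to count among the genes of that median. In colon Ube2c was less evenly spread, with 95 UMIs in 47 cells of colon 1, while Top2a had 69 in 19. The table holds no cell type that lacks these genes, so the part of free RNA in such single UMIs was not tested. A processed pseudogene lies on the strand opposite Cenpf, and 2 processed pseudogenes lie within Kif11.

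Among replication genes, the share of UMIs in cells with at least 3 other replication genes was 78.05% for Tk1 and 66.7% for Gins2. It was 23.6% to 45.97% for the MCM genes, with Mcm6 the lowest and Mcm5 the highest of them, and 17.5% for Pcna. For Pcna those cells held 5.83% of all UMIs. By library the share of Pcna was 11.8%, 32.9% and 13.6%, where those cells held 4.38%, 8.48% and 5.45% of UMIs. The MCM genes ranged from 5.08% (Mcm4) to 36.96% (Mcm5) in spleen, from 33.8% (Mcm6) to 62.9% (Mcm7) in colon 1 and from 22.1% (Mcm6) to 45.6% (Mcm5) in colon 2. In cells with no UMI of any other replication gene or of any mitosis gene , Pcna stood at 104.5, 338.5 and 456.03 CPM. The ratios there were 3.24 (2.19 to 4.89) and 4.36 (3.10 to 6.33). The higher level of Pcna in colon was therefore present in cells with no UMI of the other listed replication and mitosis genes. Replication and mitosis genes outside these lists were not excluded from such cells.

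**Figure D3:**
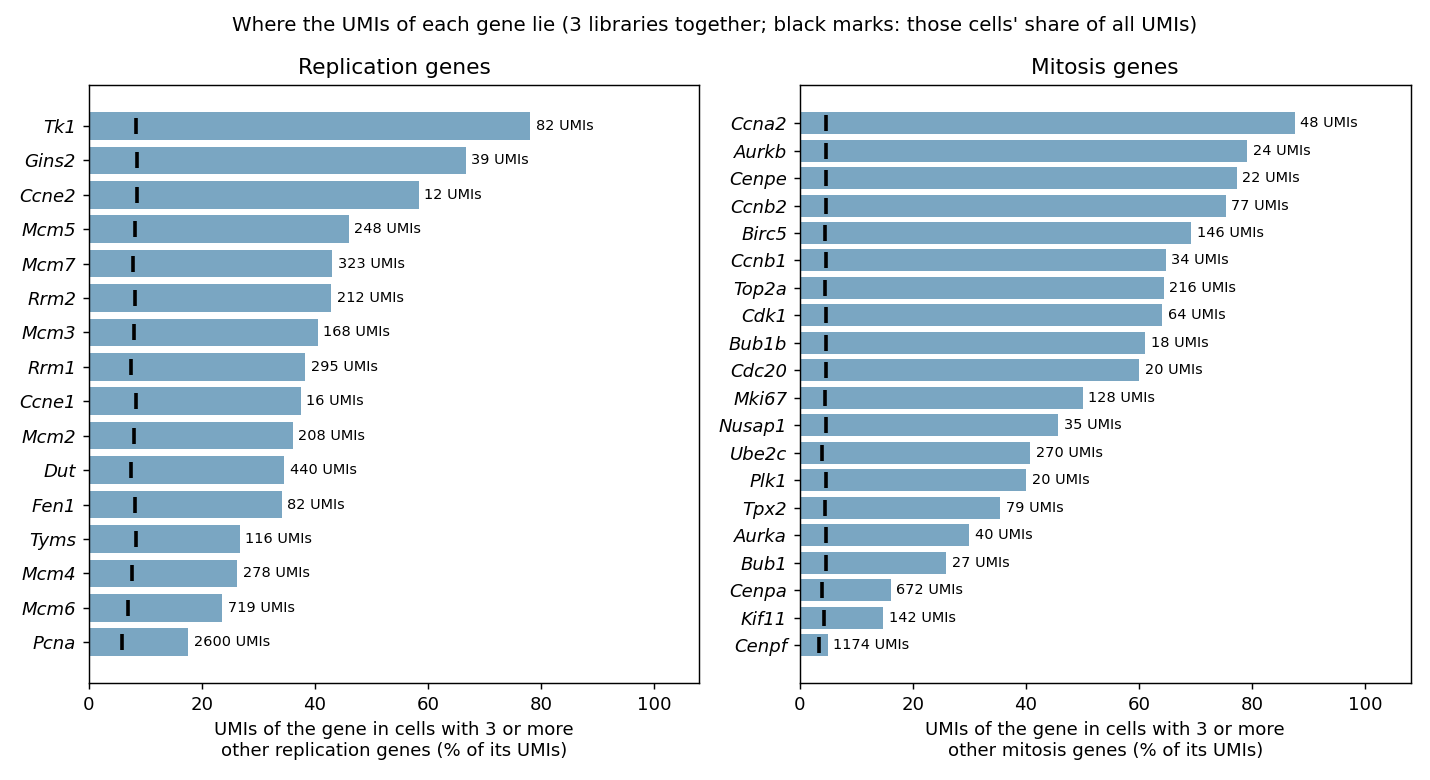
Share of each gene's UMIs, over the 3 libraries together, that lay in cells with UMIs of 3 or more other genes of the same list, for replication genes (left) and mitosis genes (right). Bars start at 0, labels give the gene's UMIs and black marks give those cells' share of all UMIs. With the libraries pooled, Pcna (17.5%) and Cenpf (4.94%) have the lowest shares of their lists, an order that some single libraries do not keep (Mcm4 in spleen at 5.08% and Pcna at 11.8%).

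By the rule set for this comparison, a cell with UMIs of 2 or more mitosis genes, 10.5% of spleen cells (8.23 to 13.2), 13.6% of colon 1 cells (10.97 to 16.5) and 10.1% of colon 2 cells (8.74 to 11.6) held mitosis transcripts. With every cell thinned to 1000 UMIs the shares were 4.89%, 5.74% and 3.73%, after leaving out 4, 9 and 28 shallower cells. These intervals overlap between all libraries. With Cenpf, Cenpa and Ube2c left out, a choice made after seeing the data, the shares with 2 or more genes were 1.78%, 3.07% and 1.86%.

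A stricter rule of 4 or more mitosis genes, also chosen after seeing the data, was met by 4 spleen cells (0.648%, 0.177 to 1.65), 13 colon 1 cells (2.10%, 1.12 to 3.56) and 21 colon 2 cells (1.19%, 0.735 to 1.81). The point values were higher in colon, and the interval of spleen overlapped both others. With 8 or more mitosis genes there were 0, 8 and 9 cells, and the 0 cells of spleen allow a share of up to 0.486% on the floor of 3 cells and 0.596% by the Clopper-Pearson limit. The cell with the most held 6 of the 20 genes in spleen, 12 in colon 1 and 15 in colon 2. Thinned to 1000 UMIs, 0 spleen, 4 colon 1 and 10 colon 2 cells still met the rule of 4 genes.

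**Figure D4:**
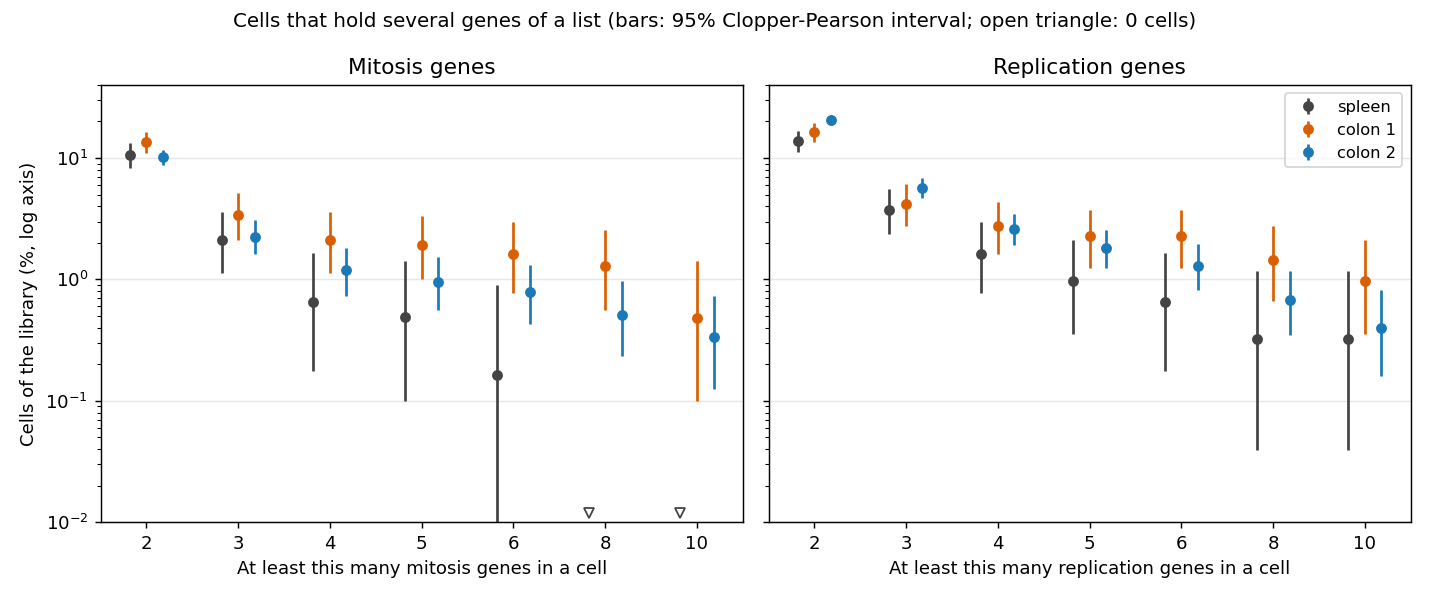
Share of cells in each library, on a log axis, that hold at least the number of mitosis genes (left) or replication genes (right) on the horizontal axis, in cells of their full depth. Points are libraries, bars are 95% Clopper-Pearson intervals and open triangles mark 0 cells. At 2 or more mitosis genes the libraries stand at 10.5%, 13.6% and 10.1%, and at 8 or more the spleen library has 0 cells.

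The cells with 4 or more mitosis genes were deep, with a median of 4355.5, 6190 and 5269 UMIs, and 4 of 4, 11 of 13 and 13 of 21 had over 2 times the median depth of their library. No doublet caller was run. At least 2 of 8 Treg and T cell markers were present in 4 of 4, 13 of 13 and 20 of 21 of them, and a Foxp3 UMI in 1, 11 and 13. Of the other, shallower cells 84.3%, 94.9% and 97.1% held 2 such markers. The summed level of the 8 markers was lower in the cells with 4 or more mitosis genes, at 1788 against 3487.5 CPM in spleen, 3966 against 6289 in colon 1 and 3894 against 6080 in colon 2. At least 2 of 8 B cell markers stood in 0, 0 and 2 of them and at least 2 of 10 myeloid markers in 0, 1 and 1. In colon 2 the B cell share was 9.52% against 0.628% of the other cells. The myeloid share was 7.69% against 0.495% in colon 1 and 4.76% against 1.03% in colon 2. None of these cells held 2 markers of plasma cells, of stroma and endothelium or of CD8 and NK cells. At least 1 plasma cell marker stood in 0, 4 and 6 of them. The counts were 0, 2 and 4 for stroma and endothelium and 1, 5 and 3 for CD8 and NK cells. All epithelial and erythroid markers were at 0 in these cells. They were also rich in replication transcripts: 3 of 4, 10 of 13 and 12 of 21 held 4 or more replication genes. In the other direction the overlap was 3 of 10 spleen cells with 4 or more replication genes (30%), 10 of 17 in colon 1 (58.8%) and 12 of 46 in colon 2 (26.1%).

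A large part of the mitosis UMIs in colon lay in these few cells. They were picked for holding mitosis genes, so that part is set in some measure by the rule. They held 6.63% of mitosis UMIs in spleen, 39.1% in colon 1 and 28.5% in colon 2, with 1.69%, 6.40% and 2.71% of all UMIs. With Cenpf, Cenpa and Ube2c set aside the shares were 16.2%, 64.9% and 56.6%. Of the replication UMIs they held 8.82%, 36.2% and 11.3%. The colon 1 cell with the most mitosis genes held 39 mitosis UMIs and 26 Stmn1 UMIs in 7651 UMIs, and UMIs of 11 replication genes. The cell with the most in colon 2 held 65 mitosis and 18 replication UMIs in 6422 UMIs, and the spleen cell with the most held 11 and 6 in 4028.

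With these cells left out, the colon 1 sums of the other replication and mitosis genes and the colon 2 sum of the mitosis genes other than Cenpf lay near equality, and the level of Pcna did not. The 15 replication genes other than Pcna stood at 411.4, 402.4 and 417.8 CPM, ratios of 0.978 (0.861 to 1.11) and 1.02 (0.918 to 1.12). The MCM genes had ratios of 1.02 (0.876 to 1.197) and 0.976 (0.861 to 1.11). The mitosis genes other than Cenpf stood at 179.8, 208 and 204.7 CPM, ratios of 1.16 (0.961 to 1.39) and 1.14 (0.980 to 1.33). Pcna stood at 132.8, 332.5 and 455.1 CPM, still 2.50-fold (2.08 to 3.02) and 3.43-fold (2.92 to 4.05) higher in colon. H2afz was 1.6-fold and 1.62-fold higher and Stmn1 2.40-fold (1.53 to 3.85) and 1.91-fold (1.28 to 2.94). Other single genes kept a difference in colon 2. Rrm1 had ratios of 1.39 (0.770 to 2.53) and 2.50 (1.60 to 4.10), Cenpa of 1.203 (0.876 to 1.65) and 1.68 (1.31 to 2.17), and Top2a of 1.84 (0.721 to 5.07) and 2.23 (1.06 to 5.42). Cenpf stayed at 0.605 times (0.525 to 0.698) the spleen level in colon 2. Hmgb2, at 0.690 (0.579 to 0.821) and 0.667 (0.584 to 0.762), and Tubb5, at 0.793 (0.692 to 0.907) and 0.795 (0.716 to 0.883), were below spleen in both colon libraries. Cells were left out here for their mitosis transcripts, so the mitosis values describe what remained.

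**Figure D5:**
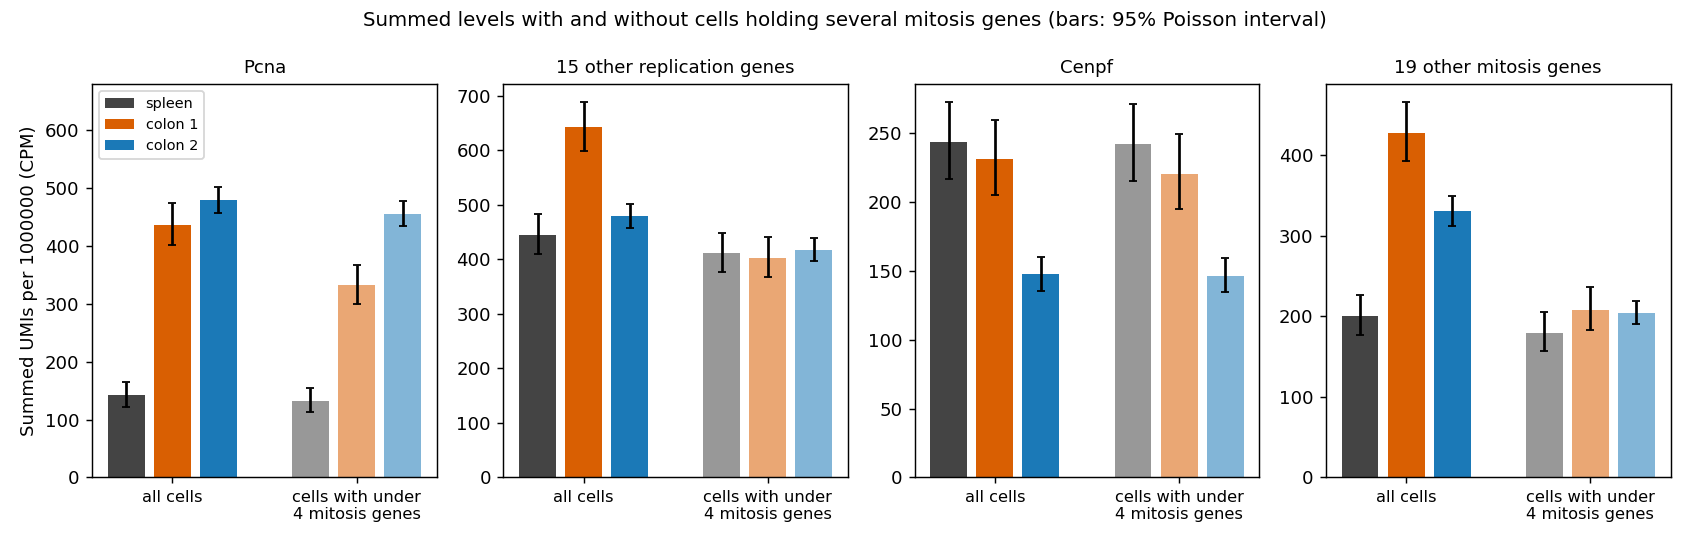
Summed CPM of Pcna, of the 15 other replication genes, of Cenpf and of the 19 other mitosis genes, in all cells (full colour) and in cells with fewer than 4 mitosis genes (pale), by library. Bars start at 0 and error bars are 95% Poisson intervals. Pcna stays at 132.8, 332.5 and 455.1 CPM without the cells that hold 4 or more mitosis genes, while the 15 other replication genes stand at 411.4, 402.4 and 417.8 CPM.

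In cells with no UMI of any of the 20 mitosis genes, the replication sum stood at 487.98, 750.6 and 818.6 CPM, 1.54-fold (1.32 to 1.80) and 1.68-fold (1.48 to 1.91) higher in colon. Pcna there was 2.54-fold (1.91 to 3.41) and 3.66-fold (2.87 to 4.74) higher, and the other replication genes 1.19-fold (0.983 to 1.45) and 0.994-fold (0.850 to 1.17). Rrm1 stood at 12.5, 41.2 and 38.1 CPM in these cells, 3.29-fold (1.36 to 9.12) and 3.04-fold (1.41 to 7.82) higher, from 7 spleen UMIs. In cells with fewer than 2 mitosis genes its ratio was 1.41 (0.760 to 2.67) in colon 1, which held equality, and 2.25 (1.40 to 3.80) in colon 2. The higher level of Pcna was thus present in all these cell sets in both colon libraries, and that of Rrm1 in colon 2.

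Within a library, the replication sum was compared between cells with and without a UMI of S100a4, a gene of effector-like T cells that was present in 25.1%, 72.2% and 75.96% of cells. Cells with S100a4 had 1.25 times (1.07 to 1.46) the level of cells without it in spleen, 1.47 times (1.28 to 1.69) in colon 1 and 0.992 times (0.918 to 1.07) in colon 2. The colon libraries did not show the same split. Pcna was higher in colon on both sides of it, 2.84-fold and 2.95-fold in cells with S100a4 and 2.90-fold and 3.80-fold in cells without.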

How the data were processed

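UMI counts per gene and cell were used as the authors deposited them; per the submitters' processing notes TopHat2, SAMtools and the genome build mm10 were used, and the use of strand in counting and any cell filter: not given in the sources used here. All 3008 cells were kept, grouped by library from their labels; UMIs were summed per library and divided by its UMI total. The 40 members and all gene lists were chosen with earlier results of these data known. Ratios were formed with Python 3.11.15, numpy 2.4.6, pandas 2.3.3 and scipy 1.17.1, with exact 95% intervals of counting. A gene with 0 UMIs was set to a floor of 3. Genes with a mean of at least 10 CPM over the libraries weighted equally entered the counts of 2-fold differences. This rule was run on simulated Poisson counts, which held counting error and no spread between libraries. The run therefore says nothing on such spread. Members passing this filter are named with values in every library, the others by UMIs, and up to 4 genes of each further list by the size of their mean log2 ratio. Alternatives were TMM factors (edgeR 4.0.16, R 4.3.3), median of ratios, totals without ribosomal protein genes, filters of 0 and 30 CPM, means over cells, thinning to 1000 UMIs, and leaving out deep cells, cells with markers of other types, cells with mitosis genes, leading genes or 1 colon library. Gene positions come from GENCODE on GRCm38.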

Additional observations from a re-analysis of the deposited data

How the results depend on the processing

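All values here are log2 ratios of colon to spleen sums unless said otherwise. The replication sum (0.88 in colon 1, 0.71 in colon 2) was positive under every alternative run. In colon 1 it was 0.67 with totals without ribosomal protein genes, 0.66 as a mean over cells, 0.52 without the deepest 5% of cells, 0.57 without cells of 2 or more mitosis genes, 0.61 thinned, 0.53 without Pcna and 0.43 without cells of 4 or more mitosis genes. In colon 2 it was 0.48 without ribosomal protein genes in the totals and 0.11 without Pcna. The mitosis sum (0.57 and 0.11) depended on the setting. Without ribosomal protein genes in the totals it was 0.36 and -0.12, as a mean over cells 0.21 and -0.10, without the deepest 5% 0.11 and -0.14, and thinned 0.19 and -0.14. Without cells of 2 or more mitosis genes it turned to -0.10 and -0.31, and without cells of 4 or more it was 0.023 and -0.27, which leave out mitosis UMIs by construction. It was 1.09 and 0.72 without Cenpf and 1.25 and 0.79 without Cenpf, Cenpa and Ube2c.

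The count of replication genes at least 2-fold higher in both (3) was 1 with totals without ribosomal protein genes. It was 3 to 4 with 1 colon library left out and 4 with no filter. As a mean over cells, without the deepest 5% and without cells of 2 or more mitosis genes it was 2. It was also 2 thinned and with a filter of 30 CPM. The count of mitosis genes (1) was 0 without cells of 2 or more mitosis genes, 0 thinned, 6 with no filter and 1 to 3 with 1 colon library left out. The share of cells with 2 or more mitosis genes (10.5%, 13.6% and 10.1%) was 4.89%, 5.74% and 3.73% thinned, 0.648%, 2.10% and 1.19% at 4 or more genes, and 1.78%, 3.07% and 1.86% without Cenpf, Cenpa and Ube2c. It was 8.56% in colon 2 without the deepest 5% of cells. The cause of the changes not set by construction was not tested. Settings with 4 or more genes or without the 3 genes were chosen after seeing the data.

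Totals without ribosomal protein genes moved the median log2 ratio of all genes to -0.20 and -0.22, and the higher share of all called genes from 67.03% to 48.5%. Of the mean log2 ratios of 25 single members, that of H2afz went from 0.71 to 0.49 with these totals, outside the counting intervals of its 2 colon ratios, and those of Dut, Mcm2, Mcm4, Mcm5 and Tk1 turned negative (-0.19, -0.20, -0.20, -0.07 and -0.10). Without colon 1 the mean turned negative for Dut, Kif11, Mcm2, Mcm3, Mcm4, Mcm7 and Tk1, and Cenpf went from -0.40 to -0.72, or -0.07 without colon 2. Tubb5, at -0.005, turned positive with TMM factors, median of ratios and without colon 2. Members with under 10 UMIs in spleen cannot be ranked at this depth. No paired analysis was possible because the numbers in the labels name single cells and no animal.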

Other observations

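Of 46 further replication genes, 27 passed the filter, of which 3 passed 2-fold upward in colon 1 and colon 2 and 1 downward, beside 9.41% and 4.63% of all genes. Lig1, the ligase gene that seals Okazaki fragments, stood at 11.9, 51.1 and 35.2 CPM in spleen, colon 1 and colon 2, 4.28-fold and 2.95-fold higher in colon. Dctpp1, a nucleotide pool enzyme gene, stood at 28.7, 91.0 and 85.8 CPM, and Pole3, a polymerase epsilon subunit gene, at 7.96, 17.6 and 18.4 CPM. Orc5, an origin recognition gene, was lower at 30.3, 13.6 and 14.6 CPM. The list's median log2 ratio was -0.28 and -0.26.

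Of 51 further mitosis genes, 23 passed, with 7 higher in both and 1 lower, beside 9.41% and 4.63% of all genes. This list, like the other further lists, was chosen with earlier results of these data known. The filter can also favour genes that are high in colon, as with Kif23. The count is therefore a description and no support for a difference of the list. Lmnb1, a nuclear lamina gene that is not used by dividing cells alone, stood at 62.1, 327.1 and 364.3 CPM. Kif23, a motor gene of cytokinesis, had 1 spleen UMI against 51 in colon 1 and stood at 40.7 and 29.4 CPM in colon, with log2 intervals of 3.13 to 11.01 and 2.70 to 10.52. Cks2, a gene of a small Cdk-binding protein, stood at 10.4, 43.9 and 32.4 CPM. The lower gene was Smc4, a condensin subunit, at 495.2, 114.9 and 136.1 CPM, with log2 ratios of -2.11 (-2.38 to -1.84) and -1.86 (-2.03 to -1.69). The list's median log2 ratio was 0.79 and 0.40.

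Of 28 genes that control entry into the cycle, 15 passed, with 3 higher and 3 lower, beside the same 9.41% and 4.63%. Cdkn1a, which encodes the Cdk inhibitor p21, a target of p53, had 5 spleen UMIs and stood at 3.98, 262.5 and 343.1 CPM, with log2 ratios of 6.04 (4.81 to 7.68) and 6.43 (5.20 to 8.05). Cdkn2c, the gene of the inhibitor p18, stood at 11.1, 57.4 and 48.3 CPM. E2f2, a gene of an E2F activator, was lower at 27.1, 5.59 and 7.40 CPM. E2f7, a gene of an E2F repressor, had 99 UMIs in spleen, 41 in colon 1 and 3 in colon 2, so the colon libraries differed in it as well.

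A list of 20 genes held Trp53, the gene of p53, and genes known as p53 targets. Of the 20, 16 passed, with 2 higher (Cdkn1a and Ddit4) and 1 lower (Bbc3), counts near the 9.41% and 4.63% of all genes. The median log2 ratio of the 16 was 0.07 and -0.08. Ddit4, a stress-response gene, stood at 173.6, 597.6 and 523.2 CPM, Bbc3, which encodes the death protein PUMA, at 31.8, 11.97 and 11.2 CPM, and Pmaip1, which encodes NOXA, at 43.0, 81.4 and 118.5 CPM. Pcna is known as a p53 target too, and whether p53 bears on its level here was not tested. Without matching for depth, Pcna stood at 485.4 CPM in colon 1 cells with a Cdkn1a UMI and at 423.3 CPM in those without. In such cells of colon 2 it stood at 560.4 and 452.004 CPM. These genes were higher or lower in libraries that differ in tissue and in dissociation, which cannot be told apart.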
